A study of Caenorhabditis elegans with 20 samples.

Results

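The regions described are 1 kb bins of C. elegans chromosome X that carried the repressive histone mark H3K27me3 in the wild type and were also rich in the histone variant H3.3. A bin was a member when it started left of position 12130001 on X (genome build WBcel215) and when its log2 ratio of immunoprecipitated (IP) over input chromatin was above 0 for wild-type H3K27me3 and above 0 for OLLAS-tagged H3.3. These thresholds gave 2745 members of the 12130 bins on that stretch of X (22.6%) and of 100269 bins on all 6 chromosomes. Members were 24.9% of the X bins past the H3K27me3 threshold there, so most marked X chromatin was poor in H3.3. The members were thus chosen by the wild-type H3K27me3 and H3.3 OLLAS values (past the thresholds in 68.1% and 40.0% of all bins), which are given only as a description.

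H3K27me3 is written by Polycomb repressive complex 2 (PRC2), whose catalytic subunit in worms is MES-2, and it marks chromatin that is kept silent. In the C. elegans germ line most of chromosome X is silent and densely marked, whereas H3.3, the variant that is placed into chromatin outside DNA replication, lies mainly on active autosomal genes. K27M replaces the lysine target of PRC2 by methionine, and histones with this change, known as oncohistones from childhood brain tumours, inhibit PRC2. H3.3-rich bins on a marked X are the places where H3.3 with K27M and the mark would meet on that chromosome, and the question was whether H3K27me3 was still found there in worms with K27M.

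H3K27me3 was measured by native ChIP-seq in 6 of 8 strains, in nuclei of young adults grown at 20 °C, with an antibody against H3K27me2 and H3K27me3. Strains without K27M were the wild type (N2), H3-like (allele uge67 of the H3.3 gene his-72 on chromosome III, labelled A87S, A88V, I89A and G90M) and duplication (mnDp10, labelled umnls31, X and I, together with unc-3 allele e151 on X). The paper describes the H3-like change as a swap of the H3.3 chaperone recognition motif AAIG for SAVM of canonical H3. The substitutions as labelled do not spell SAVM in that order. Strains with K27M were H3.3K27M (his-72 allele uge40), H3-like K27M (allele uge68, K27M joined to the H3-like residues) and duplication H3.3K27M (uge40 with mnDp10 and e151). The tagged histones were H3.3 OLLAS (uge69) and H3.3K27M OLLAS (uge79), both at his-72. For H3K36me3, a mark laid down on transcribed genes, libraries came from wild-type and H3.3K27M worms. His-72 is just a member of a family of H3.3 genes of the worm, and the other H3 and H3.3 genes were left unedited. Each group held 1 IP library and 1 input library, into which replicates had been merged, so no single strain has a replicate error. The nuclei came from whole worms and were enriched for germ-cell nuclei, and in such a mixture a mark on fewer nuclei and less of a mark per nucleus cannot be told apart.

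The libraries differed in depth, and 1 of them did not show what its label names. In the members the median input ran from 24.1 to 306.1 reads per 100 bp, with the H3K36me3 libraries and the duplication pair at the shallow end. All IP and input read numbers of bins below, and limits on them, are likewise means per 100 bp. The library labelled duplication had 1.48 times as much input right of position 12130001 on X as left of it, whereas the library labelled duplication H3.3K27M had 1.02 times as much, close to the ratio of 0.986 in the wild type. Members lie outside that stretch, and the strain is called duplication H3.3K27M below as its label has it. Median scaled input over the members lay between 95.5 and 111.3 in the 6 H3K27me3 libraries, compared with 86.5 to 107.6 in marked X bins poor in H3.3. All tracks had been scaled to the same number of reads, so a value gives the position of a strain's signal along the genome, and total amounts cannot be compared. From these tracks a higher share of the signal on X and a lower share on the autosomes therefore cannot be told apart. By western blot, the paper reports strongly lower total H3K27me3 with H3.3K27M and with H3-like K27M than in the wild type. Its stainings of germ cells had the mark lost from most chromatin and kept on X. Higher values below are thus relative to the signal of the same library.

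H3K27me3 was above input in nearly all H3.3-rich X bins of every strain with K27M. In H3.3K27M the log2 ratio was above 0 in 2714 of 2745 members (98.9%, against 39.4% of all bins), with a median of 1.15 and quartiles of 1.04 and 1.24. In H3-like K27M it was above 0 in 2723 members (99.2%, against 25.2% of all bins), with a median of 1.30. For the duplication strains no log2 track in 1 kb bins was deposited, and log2 ratios were computed from reads recovered from the input-subtracted track. In the library labelled duplication H3.3K27M this ratio was above 0 in 2718 members (99.0%, against 38.3% of all bins), with a median of 1.13. In all, 2703 members (98.5%) were above 0 in all 3 strains. The rest of that stretch of X shared this. In the same order of strains, marked X bins poor in H3.3 were above 0 in 99.4%, 99.5% and 99.4%. X bins low in wild-type H3K27me3 were above 0 in 82.5%, 83.4% and 82.8%.

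Strains without K27M had lower ratios in the same bins. In H3-like the median was 0.28, and 2322 members (84.6%, against 64.3% of all bins) were above 0. In duplication it was 0.33, and 2243 members (81.7%, against 61.8% of all bins) were above 0. The wild type, whose track chose the members, had a median of 0.31. The medians of the 3 strains without K27M thus lay between 0.28 and 0.33, and those of the 3 strains with it between 1.13 and 1.30.

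**Figure D1:**
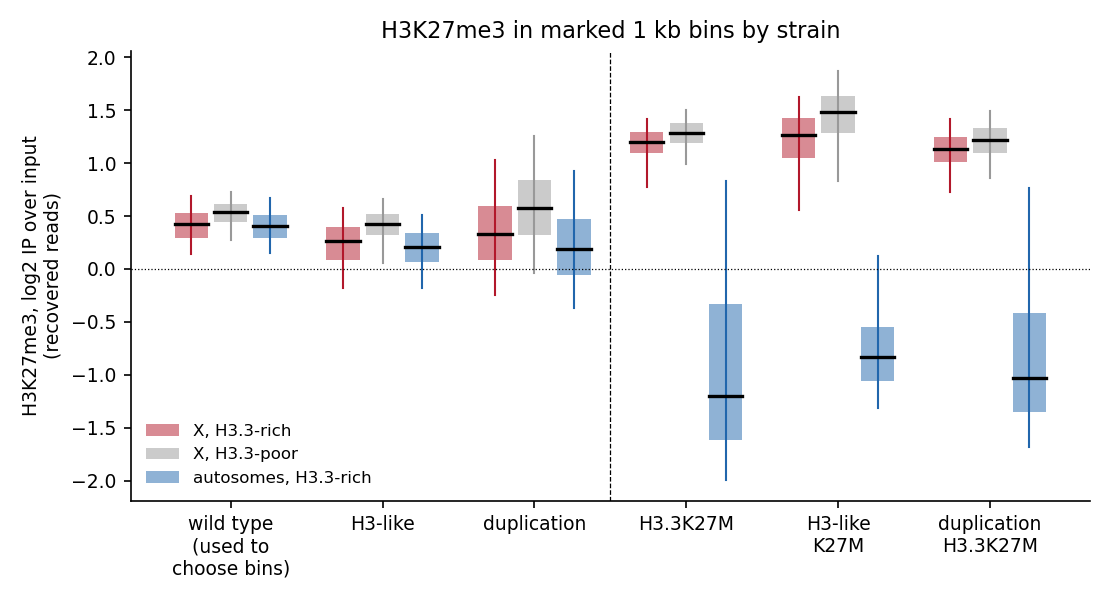
H3K27me3 (log2 IP over input from recovered reads, y axis) in each strain (x axis) over the 2745 H3.3-rich X bins, the 8274 marked X bins poor in H3.3 and the 14142 autosomal bins past the same thresholds; black lines are medians over bins, boxes quartiles and thin lines the 5th to 95th percentile. In strains with K27M, right of the dashed line, the H3.3-rich X bins sit with the rest of X, at medians of 1.20, 1.27 and 1.13, and apart from the H3.3-rich autosomal bins.

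Autosomal bins that passed the same thresholds had opposite values in strains with K27M. These 14142 bins had wild-type H3K27me3 and H3.3 OLLAS ratios like those of the members, with medians of 0.30 and 0.34 against 0.31 and 0.27. Their H3.3K27M OLLAS ratio was somewhat higher, with a median of 0.45 against 0.31 and 94.3% against 87.5% above 0. In H3.3K27M their median was -1.26, and 17.9% of them were above 0. In H3-like K27M it was -0.84, with 6.15% above 0, and in duplication H3.3K27M it was -1.03. The members exceeded them by 2.40 on the log2 scale in H3.3K27M and by 2.14 in H3-like K27M, but by only 0.08 in H3-like. With 1 library per strain these differences between sets of bins have no test.

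The comparison of K27M with its background was made in pairs of strains and in a fit over strains. From H3-like to H3-like K27M the log2 ratio was higher in 2705 of 2745 members (98.5%, against 45.7% of all bins), by a median of 1.03 (quartiles 0.82 and 1.20). The increase was above 1 in 1480 members (53.9%, against 20.5% of all bins). From duplication to duplication H3.3K27M it was higher in 2615 members (95.3%, against 48.8% of all bins), by a median of 0.77, and above 1 in 806 members (29.4%, against 7.08% of all bins). The latter library lacked the extra X input of duplication, so a shared background is known for this pair from the labels only. Between the wild type and H3.3K27M the ratio was higher in 2681 members (97.7%, against 53.8% of all bins) by a median of 0.83, and above 1 in 476 (17.3%, against 7.07% of all bins), but this pair contains a track that chose the members. Autosomal H3.3-rich bins had differences of the opposite sign in these pairs, with medians of -1.03, -1.18 and -1.55. Marked X bins poor in H3.3 rose like the members. They were higher in 99.1%, 92.0% and 99.1%, with medians of 1.06, 0.63 and 0.80. The sizes depended on the zero point. With each log2 track centred on its own genome-wide median, the median differences over the members in the 3 pairs were 1.98, 1.76 and 1.95, and those over the autosomal H3.3-rich bins were -0.07, -0.19 and -0.43. Centring thus kept the higher scaled signal of the members and left little of the autosomal fall in the H3-like and duplication pairs.

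Across strains, the scaled H3K27me3 signal over the members was called higher with K27M. The fit was made by limma on input-subtracted signal in 1 kb bins, with 3 strains with K27M against H3-like and duplication, and p-values were adjusted over all bins by the Benjamini-Hochberg method at 0.05. H3.3K27M and duplication H3.3K27M are labelled with the same his-72 allele and entered the fit as separate strains. The fit called 2502 of 2745 members higher (91.1%) and 2 lower (0.073%), compared with 18.1% of all bins higher and 28.8% lower. The median difference over the members was 111.8 scaled reads per 100 bp. Among marked X bins poor in H3.3, 92.3% were called higher, with a median difference of 111.5, but after quantile normalization the shares were 63.0% of the members and 36.3% of the H3.3-poor bins, with medians of 88.5 and 53.4. In that setting X bins low in wild-type H3K27me3 were higher still, with 79.8% called and a median of 121.8. Among autosomal H3.3-rich bins 1.29% were called higher and 63.9% lower, with a median of -61.7. The autosomal calls depended on the scaling as well: centred tracks gave 6.53% higher and 9.05% lower with a median of -8.70, and quantile normalization gave 17.1% lower with a median of -23.5. In 2640 members (96.2%, against 23.1% of all bins) each of the 3 strains with K27M lay above both strains without it, and in 13 members (0.474%, against 37.6% of all bins) each lay below both. The split over all bins depended on the scaling, from 18105 higher and 28867 lower to 43424 and 5070 with centred tracks, while centring gave 2720 members higher and 0 lower (1 of the 2 lower calls turned its sign, and 0 members were lower at an unadjusted p under 0.05). The calls depended on having 2 strains without K27M. With H3-like or duplication left out only 1 such strain remained, and calls were fewer or absent in the members and over all bins alike. The median difference over the members was then 107.6 and 115.6 scaled reads. Without the library labelled duplication H3.3K27M limma called 2255 members higher (82.1%, against 15.6% of all bins). With the backgrounds as labelled (H3-like or duplication) as a block, in a fit without H3.3K27M, it called 0 members and 0 of all bins. At an unadjusted p under 0.05 that fit had 2402 members higher, against 16980 of 100269 bins.

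The largest called differences lay in 3 bins with low wild-type H3K27me3 ratios, of 0.04 to 0.14. In X:3124001-3125000 the input-subtracted signal was 271.0 in H3-like K27M, 296.1 in H3.3K27M and 173.6 in duplication H3.3K27M, compared with -23.1 in H3-like and -102.9 in duplication. The strains did not overlap, and the limma difference was 309.9 ± 46.3 (SE) scaled reads with an adjusted p of 0.0092. In X:10773001-10774000 the difference was 297.6 ± 33.4 (limma, adjusted p = 0.0079), and in X:2916001-2917000 it was 291.8 ± 32.5 (limma, adjusted p = 0.0079). These bins were deep, with 429.0 to 476.0 input reads in H3.3K27M against a median of 234.4, and their H3.3 OLLAS ratios of 0.0043 to 0.24 lay in the lower part of the members' range. Without duplication the adjusted p of the 3 bins lay between 0.053 and 0.058.

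The 2 members called lower were X:2003001-2004000 and X:287001-288000. In the former the log2 ratio was 0.72 in H3-like and 1.07 in duplication. With K27M it was -0.12 in H3-like K27M, -0.55 in H3.3K27M and -0.06 in duplication H3.3K27M. All strains with K27M were thus below all strains without it, and the limma difference was -54.8 ± 12.5 (SE) scaled reads (adjusted p = 0.023). In the latter the difference was -48.0 ± 10.9 (SE) scaled reads (limma, adjusted p = 0.023), and H3.3K27M had a log2 ratio of -1.15. Both calls were lost when any of H3-like, duplication, H3.3K27M or duplication H3.3K27M was left out. After centring or quantile normalization the adjusted p was between 0.10 and 0.92, and the difference in X:287001-288000 turned positive under both.

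The H3.3K27M protein itself was found in the same bins. The H3.3K27M OLLAS track, which did not choose the members, was above 0 in 2401 of 2745 of them (87.5%, against 41.3% of all bins), with a median of 0.31, while marked X bins poor in H3.3 had a median of -0.55. The median difference between H3.3K27M OLLAS and H3.3 OLLAS over the members was 0.02 on the log2 scale, with quartiles of -0.09 and 0.14. Across the members the ratios of the 2 tagged histones had a Pearson r of 0.83 over 2745 bins, given as a description since neighbouring bins are not independent. With H3.3K27M OLLAS in place of H3.3 OLLAS in the rule, 2851 X bins were chosen, and 98.9% of them had an H3K27me3 ratio above 0 in H3.3K27M.

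The level of the mark was slightly lower in H3.3-rich than in H3.3-poor X bins, and this held with and without K27M. In H3.3K27M the medians were 1.15 and 1.23, a difference of -0.08, and 73.2% of the members lay below the median of the H3.3-poor bins. In H3-like K27M the medians were 1.30 and 1.51 (a difference of -0.20), and in duplication H3.3K27M they were 1.13 and 1.22 (-0.09). Without K27M the differences were -0.15 in H3-like and -0.24 in duplication. Wild-type H3K27me3, a criterion of the members, differed too, with medians of 0.31 and 0.43. Within bands of wild-type H3K27me3 the H3.3K27M difference was -0.0056 at wild-type ratios of 0 to 0.2, -0.051 at 0.2 to 0.4, -0.054 at 0.4 to 0.6 and -0.12 above 0.6, and the H3-like K27M difference turned positive in the lowest band, to 0.039. At the H3.3 threshold itself there was no step in H3.3K27M: the 286 members with H3.3 OLLAS between 0 and 0.05 had a median H3.3K27M ratio of 1.16, and the 335 marked bins between -0.05 and 0 had 1.17. In H3-like K27M the same bins had medians of 1.31 and 1.38. At the H3K27me3 threshold, 149 members with wild-type ratios of 0 to 0.05 had a median H3.3K27M ratio of 1.06, and 136 H3.3-rich bins between -0.05 and 0 also had 1.06.

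In H3.3K27M, H3K27me3 varied little with the level of H3.3 on X and steeply on the autosomes, whereas in H3-like K27M the medians of both fell by similar amounts. In H3.3K27M, marked X bins with H3.3 OLLAS ratios below -1 had a median H3K27me3 ratio of 1.27. Members had 1.16 at H3.3 OLLAS of 0 to 0.25, 1.14 at 0.25 to 0.5, 1.10 at 0.5 to 0.75 and 1.13 at 0.75 to 1. Over the same bands autosomal medians went from 0.92 below -1 to -1.13 at 0 to 0.25 and -1.43 at 0.75 to 1. In H3-like K27M the X medians went from 1.62 in the lowest band to 1.33 and then 1.23 in the members' bands up to 1. The paper reports that the H3-like oncohistone spread into regions poor in H3.3 and was not depleted from X. No track of it was read out, so H3.3 OLLAS does not give its placement in H3-like K27M. Autosomal medians in that strain were -0.33 in the lowest band, -0.85 at 0 to 0.25 and -0.82 at 0.75 to 1, and so hardly differed across the members' bands. The order of the H3.3 bands was that of falling H3-like ratios as well: members had a median H3-like ratio of 0.33 at H3.3 OLLAS of 0 to 0.25 and 0.12 at 0.75 to 1. Over the 2745 members H3.3 OLLAS had a Spearman rho of -0.12 with H3K27me3 of H3.3K27M, -0.16 with that of H3-like K27M and -0.25 with that of H3-like, given as descriptions.

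**Figure D2:**
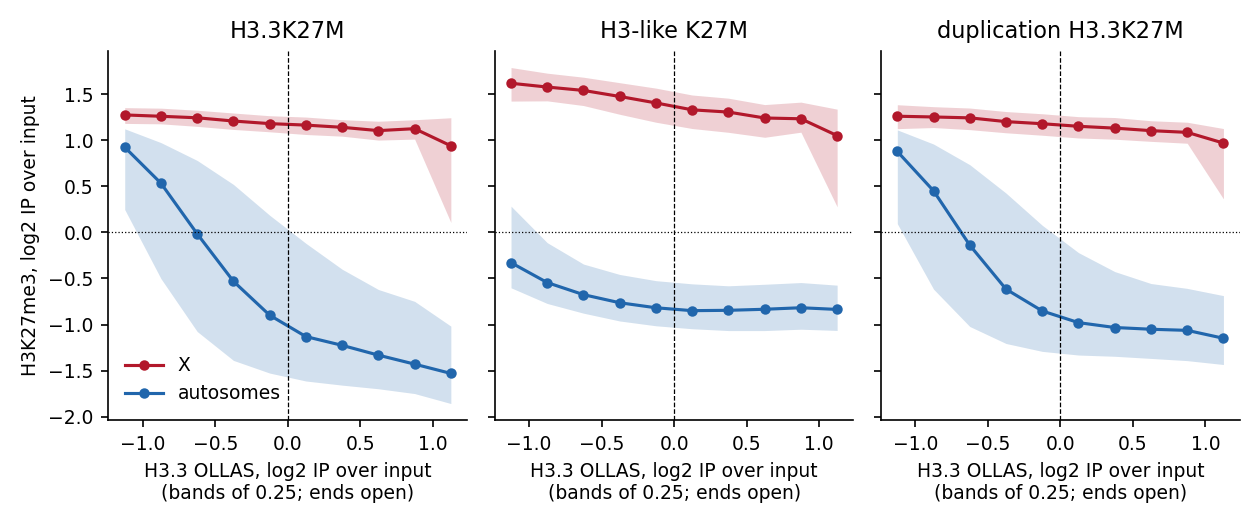
H3K27me3 (log2 IP over input, y axis) in the 3 strains with K27M against H3.3 OLLAS (log2 IP over input, x axis) in bands of 0.25 over all bins marked in the wild type; points are medians, shaded areas quartiles, and the H3.3-rich X bins are the red points right of the dashed vertical line. On X the H3.3K27M median stays between 1.10 and 1.27 up to an H3.3 ratio of 1, while on the autosomes it runs from 0.92 to -1.43. H3.3 OLLAS does not give the placement of the mutant histone in H3-like K27M.

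Among strains with K27M, the highest H3.3 levels were the exception. Of 51 members with an H3.3 OLLAS ratio above 1, 12 were at or below 0 in H3.3K27M, and their share above 0 was 76.5% (95% Wilson interval 63.2 to 86.0, for counting error only). At H3.3 ratios of 0.75 to 1 the share was 98.4%. Strains without K27M had lower shares in both bands. Of the 51 members, 66.7% were above 0 in H3-like and 49.0% in duplication, against 68.8% and 50.0% at 0.75 to 1. Of 15 members above 1.25, a limit chosen after the values were seen, 11 were at or below 0 in H3.3K27M. The count was 6 in H3-like K27M, and 7 of the 15 were at or below 0 in duplication H3.3K27M. Depth was lower there as well: the 15 bins had a median of 70.5 input reads in H3.3K27M, against 234.4 over all members, and its part in the low ratios was not tested. Of the 6 of these bins with at least 100 input reads, 5 were at or below 0 in H3.3K27M, compared with 2 for H3-like K27M and 1 for duplication H3.3K27M. Of the 51 members above 1, 40 had at least 100 input reads, and 34 of these (85.0%, Wilson interval 70.9 to 92.9) were above 0. Autosomal bins with H3.3 ratios above 1 and the same depth were above 0 in 7.63% (57 of 747).

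**Figure D3:**
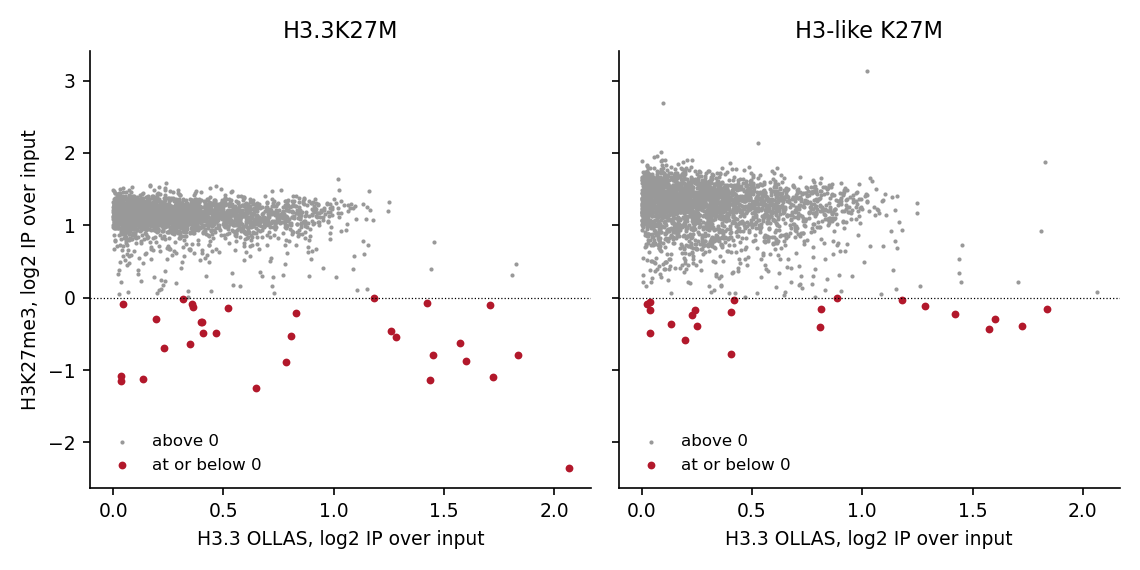
Each of the 2745 H3.3-rich X bins by H3.3 OLLAS (x axis) and by H3K27me3 in H3.3K27M (left) and H3-like K27M (right), both as log2 IP over input; red points are bins at or below 0. The red points, 31 on the left and 22 on the right, spread over the H3.3 range and make up most bins above 1.25 on the left.

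The 31 members at or below 0 in H3.3K27M (1.13%) were few and overlapped between strains. Of these, 15 were also at or below 0 in H3-like K27M, which was 48.4% of the 31 and 68.2% of the 22 such members of H3-like K27M. In duplication H3.3K27M, 20 of them were at or below 0, or 64.5% of the 31 and 74.1% of its own 27. The 31 bins had a median ratio of -0.53 in H3.3K27M, and medians of 0.0029 (H3-like K27M), -0.06 (duplication H3.3K27M) and 0.31 (wild type, which chose the members) elsewhere. They were also lower in the other strains without K27M. There the other 2714 members had medians of 0.28 (H3-like) and 0.33 (duplication), and the 31 bins had 0.16 and 0.09. Their median H3.3 OLLAS ratio was 0.65, against 0.26 in the other 2714 members, with 19 of the 31 at or below 1. The median input was 166.5 reads against 234.6, and 23 of the 31 had at least 100 input reads. The left end of X held more of them than its share of members: 10 of the 18 members in the first 300 kb were at or below 0, a limit chosen after the values were seen.

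The longest stretch of such bins was X:2058001-2064000, where all 6 members were at or below 0 in H3.3K27M. Their H3K27me3 ratios in that strain were -0.21, -0.45, -0.88, -0.79, -1.10 and -0.08 from left to right. In H3-like K27M they lay between -0.39 and 0.16, and in duplication H3.3K27M between -0.59 and 0.30. Without K27M, the duplication ratio was 0.08 and 0.46 in the 2 leftmost bins and 1.20 to 1.65 in the 4 others, and H3-like lay between -0.32 and 0.56. The same bins had some of the highest tagged histone signals of X, with H3.3 OLLAS of 0.83 to 1.84 and H3.3K27M OLLAS of 0.86 to 2.28. Their input in H3.3K27M was 32.4 to 234.8 reads, so the lowest bins rested on few reads.

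Single bins at the extremes of H3.3 differed from each other in H3K27me3. X:3076001-3077000 had the highest H3.3 OLLAS ratio (2.06) and the lowest H3.3K27M ratio (-2.35) of all members, from 14.1 IP and 39.9 input reads per 100 bp. In that bin H3-like K27M had 0.08, duplication H3.3K27M -0.34, H3-like 0.16, duplication 1.13 and the wild type 0.37. X:2061001-2062000 (H3.3 OLLAS 1.84) and X:2062001-2063000 (1.72) belong to the stretch above. The remaining pair of the 5 highest H3.3 ratios, X:7360001-7361000 (1.83) and X:7353001-7354000 (1.81), stayed above 0 in H3.3K27M, at 0.47 and 0.32, but had only 9.2 and 2.7 input reads. After X:3076001-3077000, the lowest H3.3K27M ratios were those of X:84001-85000 (-1.25), X:287001-288000 (-1.15), X:83001-84000 (-1.14) and X:280001-281000 (-1.12), all within 300 kb of the left end. H3-like K27M was at 0.03, -0.17, 0.34 and -0.36 in these, closer to input than H3.3K27M in each bin. No limma call of a difference was made in the 5 bins with the highest H3.3 ratios (adjusted p between 0.15 and 0.97). With 2.7 to 65.0 input reads, their differences in scaled reads were small, between -23.4 and 4.7. The missing calls therefore say little about their ratios.

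The highest H3.3K27M ratios were only a little above the median. The top 5 members were X:7358001-7359000 (1.64), X:1227001-1228000 (1.58), X:11551001-11552000 (1.55), X:8647001-8648000 (1.54) and X:4044001-4045000 (1.54), compared with a median of 1.15. X:8647001-8648000 had 225.9 input reads and was high in all strains with K27M, with 1.68 in H3-like K27M, and 1.33 on the duplication background, against 0.56 in H3-like and 0.39 in duplication. Its limma difference was 152.1 ± 24.1 (SE) scaled reads (adjusted p = 0.010). X:7358001-7359000 rested on 2.4 input reads, and its ratio of 0.27 in duplication H3.3K27M was far from the 3.14 in H3-like K27M.

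H3.3-rich X chromatin came in short patches. The members formed 952 runs of adjacent bins with a median length of 2 kb. Of these runs, 405 were single bins (14.8% of the members), and 155 were 5 kb or longer and held 1300 members (47.4%). Longer runs had more tagged histone and no less of the mark: in H3.3K27M the median H3K27me3 ratio was 1.11 in single bins, 1.13 in runs of 2 to 4 kb and 1.17 in runs of 5 kb or more, while H3.3 OLLAS was 0.12, 0.22 and 0.36. In H3-like K27M the medians were 1.26, 1.28 and 1.33. The H3.3K27M OLLAS track was above 0 in 69.4% of single bins and in 93.8% of the bins in the longest class.

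The longest run, X:11461001-11487000, spanned 26 kb. H3.3 OLLAS ran from 0.06 to 0.93 in it with a median of 0.72, against -0.66 in its flanks, and H3.3K27M OLLAS had a median of 0.79. In H3.3K27M, H3K27me3 had a median of 1.17 in the run and 1.17 in the flanks, and its lowest bin had 0.71. In H3-like K27M the run and its flanks had 1.40 and 1.59, and in duplication H3.3K27M 1.08 and 1.23. The strains without K27M also had less in the run than beside it, with 0.23 against 0.51 in H3-like and 0.05 against 0.77 in duplication. In this run every bin of the 3 strains with K27M was above input.

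The next 4 runs were X:4866001-4885000 (19 kb), X:8381001-8399000 (18 kb), X:3816001-3833000 (17 kb) and X:6735001-6752000 (17 kb). Their H3.3K27M medians were 1.19, 1.05, 1.21 and 1.23, against 1.19, 1.24, 1.23 and 1.16 in their flanks. The last of them had the highest H3.3 of the 5 runs, with median H3.3 OLLAS of 0.86 and median H3.3K27M OLLAS of 1.12. Its H3K27me3 in H3.3K27M lay between 0.94 and 1.49, and in H3-like K27M between 1.01 and 1.66. The lowest single bin of the 5 runs was in X:8381001-8399000, at 0.28 in H3.3K27M. Every bin of the 5 runs was above 0 in H3.3K27M.

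Around the centres of the 155 runs of 5 kb or more, the tagged histones were highest and the mark was nearly flat. The rule chose the bins of the runs, but not the flanks, by H3.3 OLLAS and wild-type H3K27me3. The H3.3 OLLAS peak therefore follows from the choice. For H3K27me3, chosen centres are compared with flanks that may hold bins unmarked in the wild type. Median H3.3K27M OLLAS was 0.45 within 1 kb of the centre and -0.12 at 8 to 10 kb from it, and H3.3 OLLAS was 0.43 and -0.07. H3K27me3 differed between centre and flank by -0.01 in H3.3K27M and in duplication H3.3K27M, and by -0.06 in H3-like K27M. Without K27M the differences were -0.04 (wild type), -0.06 (H3-like) and -0.10 (duplication). H3K36me3 had the opposite shape of the tagged histones, with differences of -0.37 (wild type) and -0.40 (H3.3K27M).

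**Figure D4:**
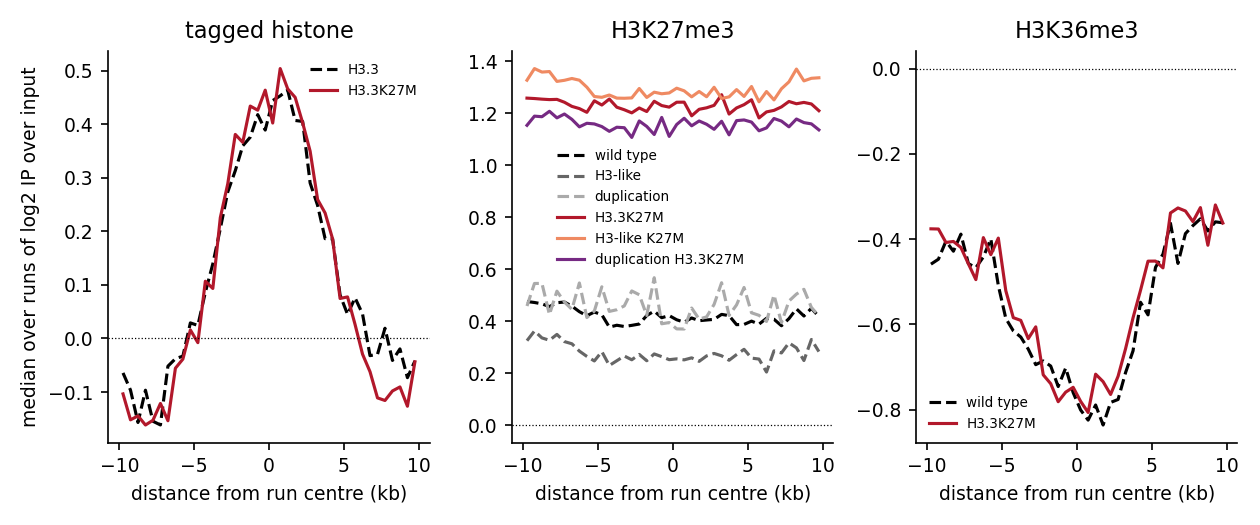
Median log2 IP over input from recovered reads (y axis) by distance from the centre of the 155 runs of H3.3-rich marked X bins of 5 kb or more (x axis, kb), for the tagged histones (left), H3K27me3 in the 6 strains (middle) and H3K36me3 (right); dashed lines are strains without K27M. The tagged histones peak and H3K36me3 dips at the centre, while H3K27me3 differs from its flanks by at most 0.10 in each strain. The runs, but not the flanks, were chosen by H3.3 OLLAS and wild-type H3K27me3, so those tracks are a description only.

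H3K36me3, the mark of transcribed genes, was below input in most members. Its input-subtracted signal had medians of -38.3 (wild type) and -36.9 (H3.3K27M) scaled reads per 100 bp, and 10.0% and 14.3% of the members were above 0, against 57.0% and 42.8% of all bins. As log2 ratios of recovered reads, both strains had a median of -0.67, while marked X bins poor in H3.3 had -0.20 and -0.26. From the wild type to H3.3K27M the median difference over the members was 0.04, with quartiles of -0.22 and 0.32. Autosomal H3.3-rich bins had -0.06 (wild type) and -0.64 (H3.3K27M), with a median difference of -0.50. That difference was not particular to them: it was -0.40 in marked autosomal bins poor in H3.3 and -0.14 over all bins. Its dependence on the zero point was not tested. The paper reports H3K36me3 distribution and average occupancy as unchanged in H3.3K27M. H3K36me3 was lower in longer runs, with wild-type medians of -0.46 in single bins, -0.62 in runs of 2 to 4 kb and -0.76 in longer ones. These libraries were shallow, with medians of 23.8 to 39.8 reads per 100 bp in the members, and with 1 library per strain no difference was tested.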

How the data were processed

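Native ChIP-seq of 8 strains gave 10 IP and 10 input libraries, grouped by strain and antibody in their labels. The authors mapped paired-end reads to WBcel215 with Novoalign at default settings, merged replicates (number not stated), binned and smoothed the reads and scaled files to equal read numbers. Deposited log2 tracks hold log2 of IP over input in 1 kb or 10 kb bins. The other deposited tracks hold a score, scaled IP minus scaled input reads, in 100 bp or 1 kb bins. Of 27 tracks 23 were used; 4 (oncohistone tracks) matched no labelled library and are not analysed here. Gene annotation and sequence of WBcel215 were not used here.

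Whole IP and input reads were solved from the 100 bp tracks (99.98% to 99.99% of bins; tolerance 2e-08 scaled reads), averaged over 1 kb and turned into log2 ratios with 1 scaled read added to each. No count test was run. Input-subtracted 100 bp values averaged over 1 kb were fitted in limma 3.58.1 (R 4.3.3; lmFit, eBayes without trend, not robust) over 100269 bins. Strains were the replicates. The read recovery and the fit were first tested on simulated data. Bins of X are not independent, so intervals over bins cover counting error only. Members, lists and limits were chosen with earlier results of these data known. Named bins were the 5 longest runs, the 5 members with the highest H3.3 OLLAS, the 5 lowest and 5 highest in H3.3K27M, and the 3 largest called rises and falls (only 2 falls were called). Alternatives were other scalings, filters, thresholds, bin sizes and sets of strains.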

Additional observations from a re-analysis of the deposited data

How the results depend on the processing

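Each strain had 1 library, so no interval covers biological spread, and bins with few input reads had unstable ratios. No paired analysis by replicate number was possible because each group held 1 merged IP library, and only 1 library has a replicate number in its label. The cause of the differences below was not tested.

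Over the fits that left out 1 strain with K27M, members called higher ran from 1990 to 2558 (72.5% to 93.2%, against 11.8% to 26.3% of all bins). Those called lower ran from 0 to 2. With H3-like or duplication left out, calls were fewer or absent in the members and over all bins. With the background as a block and H3.3K27M left out, limma called 0 higher and 0 lower, among the members and over all bins. At an unadjusted p under 0.05 that fit, with few degrees of freedom, had 2402 and 1 members, against 16980 and 26926 of all bins. Members called lower were 0 with centred tracks and 4 on log2 ratios, against 5.06% and 28.8% of all bins. The share of members above 0 in H3.3K27M was 99.7% with centred tracks, 98.3% and 97.4% with H3.3 OLLAS above 0.25 and 0.5, 99.2% without the lowest 5% of input and 100% of 253 bins of 10 kb. In H3-like it was 58.2% centred, 94.5% with wild-type ratios above 0.2, 81.1% and 75.1% with H3.3 OLLAS above 0.25 and 0.5, and 85.9% with bins chosen by H3.3K27M OLLAS. In H3-like K27M it was 99.96% centred, 98.5% with H3.3 OLLAS above 0.5 and 99.5% without the lowest 5% of input.

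The median difference of members from H3.3-poor X bins in H3.3K27M was -8.41 in scaled reads, -0.0056, -0.051, -0.054 and -0.12 in rising bands of wild-type ratio, and -0.10 and -0.12 with H3.3 OLLAS above 0.25 and 0.5. In H3-like the same settings gave -14.8, then -0.033, -0.11, -0.077 and -0.012, then -0.21 and -0.27. In H3-like K27M they gave -31.5, then 0.039 (reversed), -0.14, -0.13 and -0.24, then -0.23 and -0.27. H3-like K27M minus H3-like was 1.98 centred, and 1.04 and 1.06 with the higher H3.3 limits. Duplication H3.3K27M minus duplication was 143.5, 94.99 and 100.9 scaled reads. H3K36me3 as log2 was -0.81 in 10 kb bins and -0.67 in 1 kb bins of the wild type, and -0.66 and -0.67 in H3.3K27M; the 1 kb ratio was added after seeing the data. The other 20 values of alternatives kept their direction, and their counts stayed within 1.5 times those reported.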

Other observations

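The members were spread unevenly along X. They made up 12.8% of the bins in the 1st megabase and 15.3% in the next, at most 35.0% between 2 and 3 Mb and 30.6% between 4 and 5 Mb, and between 18.1% and 24.8% in the other whole megabases. Median H3K27me3 over the members of a megabase in H3.3K27M was lowest between 1 and 2 Mb (0.97) and in the 1st megabase (1.06), and ran from 1.11 to 1.19 further right. H3-like K27M had 0.99 between 1 and 2 Mb and 1.18 in the 1st megabase, against 1.18 to 1.48 further right. The members of these left megabases were also less depleted of H3K36me3, with wild-type medians of -0.29 and -0.31 against -0.50 to -0.82 further right. Of the 31 members at or below 0 in H3.3K27M, 15 lay in the first 2 Mb, which held 281 members. No test was made of these differences along X.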
